A study of Mus musculus with 8 samples.

Results

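Mouse embryonic stem (ES) cell cultures that had been moved from the compound IDE2 to a fibroblast growth factor (FGF) were compared with cultures kept in IDE2 throughout. The 4 arrays of the FGF cultures formed one side and the 2 arrays of the IDE2 cultures the other, so 6 of the 8 arrays of the series entered the comparison. The other 2 arrays held undifferentiated ES cells and are given as a reference level. The genes described are those whose 4 FGF arrays all lay above, or all lay below, both IDE2 arrays.

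All cells were of the E14TG2a line, a feeder-independent ES cell line derived from a 129 mouse strain. The IDE2 group received 1 uM IDE2 for 11 days. The IDE2+FGF2 group received the same compound for 6 days and then FGF2 at 500 ng/ml for 5 days, and the IDE2+FGF10 group received FGF10 at 25 ng/ml for those 5 days, so that all 3 groups were harvested at day 11. The 3 groups share the N2 and B27 differentiation medium with a low content of serum. Because each FGF culture lost IDE2 when it gained its FGF, and no culture lost IDE2 without gaining an FGF, loss of the compound and gain of a growth factor cannot be told apart. The FGF doses differed, and the labels do not say whether the 2 arrays of a group came from separate cultures, so p-values measure the spread between these arrays, which may be technical.

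IDE2 is a cell-permeable small molecule found in a screen for inducers of definitive endoderm, the germ layer that gives rise to gut, liver, pancreas and lung, and it acts through the Nodal and activin branch of transforming growth factor beta signalling. FGF ligands bind receptor tyrosine kinases and signal largely through the ERK mitogen-activated protein kinases. That pathway induces ETS-family factors such as Etv4 and Etv5, and feedback inhibitors of the Sprouty and Dusp families. In the embryo FGF2 is active on mesoderm and endothelial precursors as well as on neural progenitors, and FGF10 from the mesenchyme drives budding of the lung epithelium.

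Signals came from Illumina BeadChips with a median of 38 to 40 beads per probe. The median raw signal of an array lay between 117 and 175, and between 45.2 and 52.2% of the 25697 probes were above background (detection p under 0.05). After filtering, 9915 genes were tested. Levels below are normalised log2 signals, and 1 unit is a 2-fold difference. The ES label matched its markers: Pou5f1, the pluripotency factor Oct4, read 15.23 and 14.78 on the ES arrays and 9.31 to 12.57 on the 6 others.

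The IDE2 arrays differed from each other more than the arrays of any other group, and this bears on every result below. The pooled SD between the replicates was 0.50 log2 units for continued IDE2, 0.45 for IDE2+FGF2, 0.25 for ES and 0.24 for IDE2+FGF10. In IDE2, 1553 genes lay at least 2-fold apart between the replicates, against 180 in IDE2+FGF10. IDE2 replicate 2 stood away from the other 7 arrays on the second principal component, at 68.4 against 12.6 for IDE2 replicate 1. The counts of called genes and the list medians were therefore also computed without that array. In that fit 27 genes were called, the 24 listed below and Depp1, Emcn and Crabp2. The rises and falls of the other genes described were not called in it.

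In limma, 1274 of 9915 genes (12.8%) differed between the FGF arrays and the IDE2 arrays at an adjusted p under 0.05. Of these 471 rose with FGF (4.75%) and 803 fell (8.1%), and 386 of the rises and 675 of the falls were at least 2-fold. Without reference to any test, the 4 FGF arrays lay above both IDE2 arrays for 1416 genes (14.3%) and below both for 1491 genes (15%). An exact permutation test of 4 arrays against 2 cannot give a two-sided p below 0.133, so this ordering carries no test of its own. The gap between the nearest arrays of the sides was small for most of these 2907 genes (29.3%), with a median of 0.21 log2 units above and 0.25 below. It reached 1 unit for 29 genes above and 55 below.

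Both criteria were met by 1121 genes (11.3%), 428 of them higher with FGF (4.32%) and 693 lower (6.99%). In 1002 of the 1121 genes it was IDE2 replicate 2 that lay farther from the FGF arrays, and in 119 it was IDE2 replicate 1. Without IDE2 replicate 2 the number of called genes fell from 1274 to 27 of 9683 tested (0.279%), 13 higher (0.134%) and 14 lower (0.145%), and all 27 were among the 1274. Without IDE2 replicate 1 it was 3074 of 9759 tested (31.5%). Array weights estimated from the data left 25 genes. Both IDE2 arrays received the same weight, 0.35. With 2 arrays per group the weights within a group are always equal, so they could not single out replicate 2. When the 6 arrays were fitted alone with the 4 FGF arrays as a single group, so that differences between FGF2 and FGF10 counted as spread, no gene passed in limma, although 1857 had an unadjusted p under 0.05. Over the genes that met both criteria, the median rise was 1.21 with all arrays and 0.91 without IDE2 replicate 2, and the median fall was -1.30 and -0.93.

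**Figure D1:**
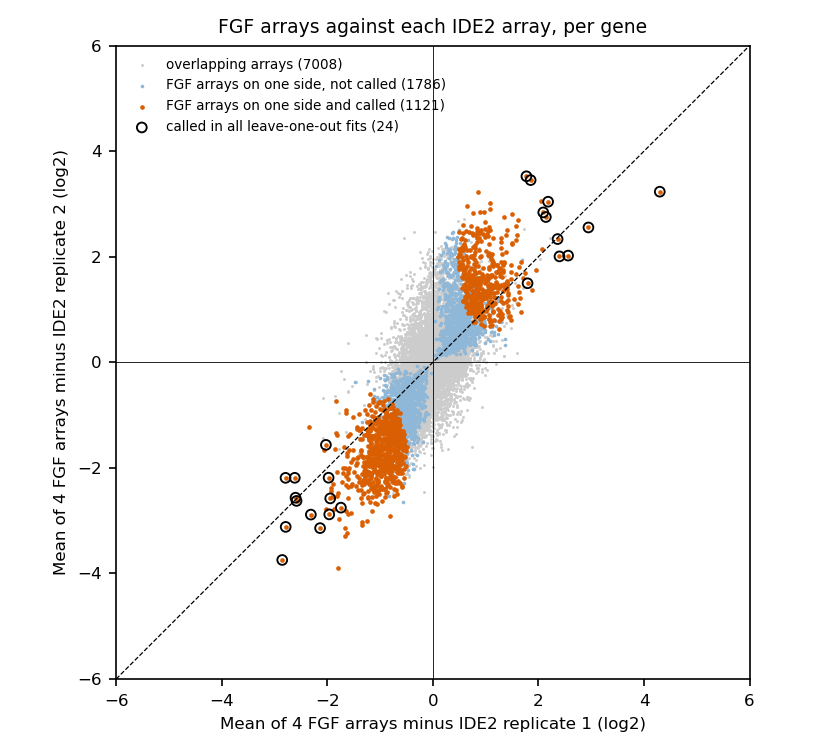
Each point is a gene, placed by the mean of its 4 FGF arrays minus IDE2 replicate 1 (horizontal, log2) and minus IDE2 replicate 2 (vertical, log2). The dashed line marks equal differences. Most of the 1121 genes in orange lie on the replicate 2 side of it, and the 24 circled genes passed in each of the 8 fits that left out a single array.

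Leaving out each of the 8 arrays in turn left 24 genes called in every fit, 11 higher and 13 lower with FGF, and all 24 met the ordering criterion. The 11 were Hspa1a, Adm, Ddit3, Ier3, Plvap, Aldoc, H2-Ab1, Dusp4, Csnk1g1, Bgn and Tram2. The 13 were Epha7, Egr2, Pisd-ps2, Pik3r3, Cbln1, Tfap2b, Wnt3a, Kynu, Fzd10, Ednrb, Bclaf1, Fgf15 and Fam181b. These genes are described first and most fully. Depp1 and Emcn were above background on the 2 FGF2 arrays alone. They were therefore not tested in the fits without an FGF2 array and could not be among the 24.

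Hspa1a, the inducible cytosolic HSP70 chaperone, had the largest rise among named genes that met both criteria. It read 5.20 and 6.27 on the IDE2 arrays, 7.80 and 8.36 with FGF2, and 10.95 and 10.89 with FGF10. The sides did not overlap, and the FGF10 arrays were the highest of the 8. The pooled difference was 3.76 ± 0.32 (SE) log2 units (adjusted p = 0.0011) and was 4.25 without IDE2 replicate 2. The probe was above background on only 1 of the 2 IDE2 arrays. Hspa1a has a near-identical copy, Hspa1b, so the signal may come from either gene. Of 13 tested genes of the heat shock list 2 rose and none fell, beside 4.75 and 8.1% of all genes. The other gene that rose was the heme oxygenase Hmox1. Hmox1 read 5.97 and 5.66 with IDE2, 5.91 and 6.83 with FGF2, and 8.07 and 7.88 with FGF10, so its rise of 1.36 ± 0.29 (adjusted p = 0.019) came with overlapping sides.

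Adm encodes adrenomedullin, a vasoactive peptide known as a target of hypoxia-inducible factors. It read 5.31 and 5.71 with IDE2, 8.92 and 8.61 with FGF2, and 7.55 and 7.97 with FGF10. The nearest arrays of the sides were 1.84 units apart, and the 2 ES arrays were the lowest, at 4.64 and 4.59. The rise was 2.75 ± 0.25 (adjusted p = 0.0011) and was 2.90 without IDE2 replicate 2 (adjusted p = 0.02). Only 1 of the 2 IDE2 arrays was above background.

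Aldoc, the aldolase C of glycolysis, rose beside it. Its levels were 8.85 and 8.10 with IDE2, 10.79 and 11.27 with FGF2, and 10.82 and 10.87 with FGF10. The levels in the FGF cultures were close, with a difference of -0.19 and a 95% interval of -0.90 to 0.53. The rise was 2.46 ± 0.28 (adjusted p = 0.0019), and 2.11 without IDE2 replicate 2 (adjusted p = 0.039).

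Of 23 tested glycolysis and hypoxia genes, 8 rose and none fell, beside 4.75 and 8.1% of all genes. The 8 were also the members of the 23 with all FGF arrays above both IDE2 arrays, beside 14.3% of all genes. Aldoa, the main aldolase of glycolysis, rose by 1.52 ± 0.28, from 13.06 and 12.68 with IDE2 to between 14.06 and 14.86 on the FGF arrays. Hk1, the first enzyme of the pathway, rose by 1.29 and Ndrg1, a stress-induced gene of differentiating cells, by 1.11. The phosphofructokinase subunits Pfkp and Pfkl rose by 0.95 and 0.86, and Egln3, a prolyl hydroxylase that marks hypoxia-inducible factors for degradation, by 0.86. Other well-known members did not pass: the glucose transporter Slc2a1 differed by -0.36, Vegfa by -0.35 and Ldha by 0.21. The list's median difference was 0.46, against 0.05 over all genes tested, and without IDE2 replicate 2 it was 0.60 against 0.01, with Adm and Aldoc as the 2 members still called.

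The promoters of Adm and Aldoc are shown because these are the hypoxia-list genes that passed whichever single array was left out, and that of Hspa1a because it rose most. Sequences run 5′ to 3′ from 250 bases before the annotated start to 50 bases after it and are from RefSeq, build GRCm38.p6. Capitals mark a match to the core of the hypoxia response element, ACGTG, which reads CACGT on the opposite strand, or to the spaced heat shock element GAANNTTC, which reads the same on both strands. Adm lies at chr7:110627407-110627706 on the plus strand, the first of 2 Aldoc starts at chr11:78322823-78323122 on the plus strand, and Hspa1a at chr17:34972107-34972406 on the minus strand.
Adm: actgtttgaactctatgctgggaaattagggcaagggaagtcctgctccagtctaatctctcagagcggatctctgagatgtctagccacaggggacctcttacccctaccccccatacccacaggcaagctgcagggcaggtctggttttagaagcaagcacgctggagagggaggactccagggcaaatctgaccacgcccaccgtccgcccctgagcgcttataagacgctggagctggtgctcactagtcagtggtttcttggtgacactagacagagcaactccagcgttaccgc
Aldoc: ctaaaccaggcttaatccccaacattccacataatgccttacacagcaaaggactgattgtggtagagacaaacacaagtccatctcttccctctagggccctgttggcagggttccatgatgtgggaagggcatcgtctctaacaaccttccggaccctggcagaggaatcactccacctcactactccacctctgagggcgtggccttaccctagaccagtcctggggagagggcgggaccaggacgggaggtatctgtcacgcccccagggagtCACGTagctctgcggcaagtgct
Hspa1a: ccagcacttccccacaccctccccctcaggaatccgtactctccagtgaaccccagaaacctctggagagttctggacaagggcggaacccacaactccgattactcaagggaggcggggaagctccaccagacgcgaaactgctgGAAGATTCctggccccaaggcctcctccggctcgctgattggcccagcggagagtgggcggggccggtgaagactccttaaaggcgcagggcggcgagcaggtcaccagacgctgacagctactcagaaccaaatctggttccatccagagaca

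In Aldoc the match began 28 bases after the start shown, and its second start, not shown, had no match. In Hspa1a the heat shock element began 104 bases before the start. Adm had no match to ACGTG in this window. The hypoxia letters occurred in 19.6% of all 32851 promoters of the table and the heat shock letters in 7.86%. Among tested genes with a promoter, 29.3% had ACGTG in at least 1 promoter. It was present for 4 of the 7 glycolysis and hypoxia genes that rose and had a promoter, and for 12 of the 14 that did not rise, so the matches did not separate the genes that rose from the rest of the list.

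Ddit3, the transcription factor CHOP of the integrated stress response, read 8.30 and 6.55 with IDE2, 8.96 and 8.83 with FGF2, and 11.22 and 11.29 with FGF10. Its IDE2 arrays were far apart, yet both lay below every FGF array. The rise of 2.65 ± 0.40 (adjusted p = 0.0074) shrank to 1.79 without IDE2 replicate 2 and remained called (adjusted p = 0.039). The integrated stress response is the shared arm by which amino acid shortage, unfolded protein and heme deficiency reduce translation through phosphorylated eIF2.

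Of 34 tested genes of the integrated stress and unfolded protein list, 8 rose and none fell, beside 4.75 and 8.1% of all genes. Ddit4, an inhibitor of mTORC1, rose by 1.76 and Nupr1, a stress-induced chromatin protein, by 1.73. Ppp1r15a, which recruits the phosphatase that reverses eIF2 phosphorylation, rose by 1.72 ± 0.23: it read 7.45 and 7.28 with IDE2, 8.32 and 8.54 with FGF2, and 9.64 and 9.84 with FGF10. Stc2, Trib3, Atf3 and the mitochondrial serine enzyme Shmt2 rose by 1.24, 1.08, 1.07 and 1.00. The sides overlapped for Atf3 and did not for the other 7, and Trib3 was above background on 1 of the 2 IDE2 arrays. The median of the list was 0.11, close to the 0.05 of all genes. Without IDE2 replicate 2 only Ddit3 was still called.

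**Figure D2:**
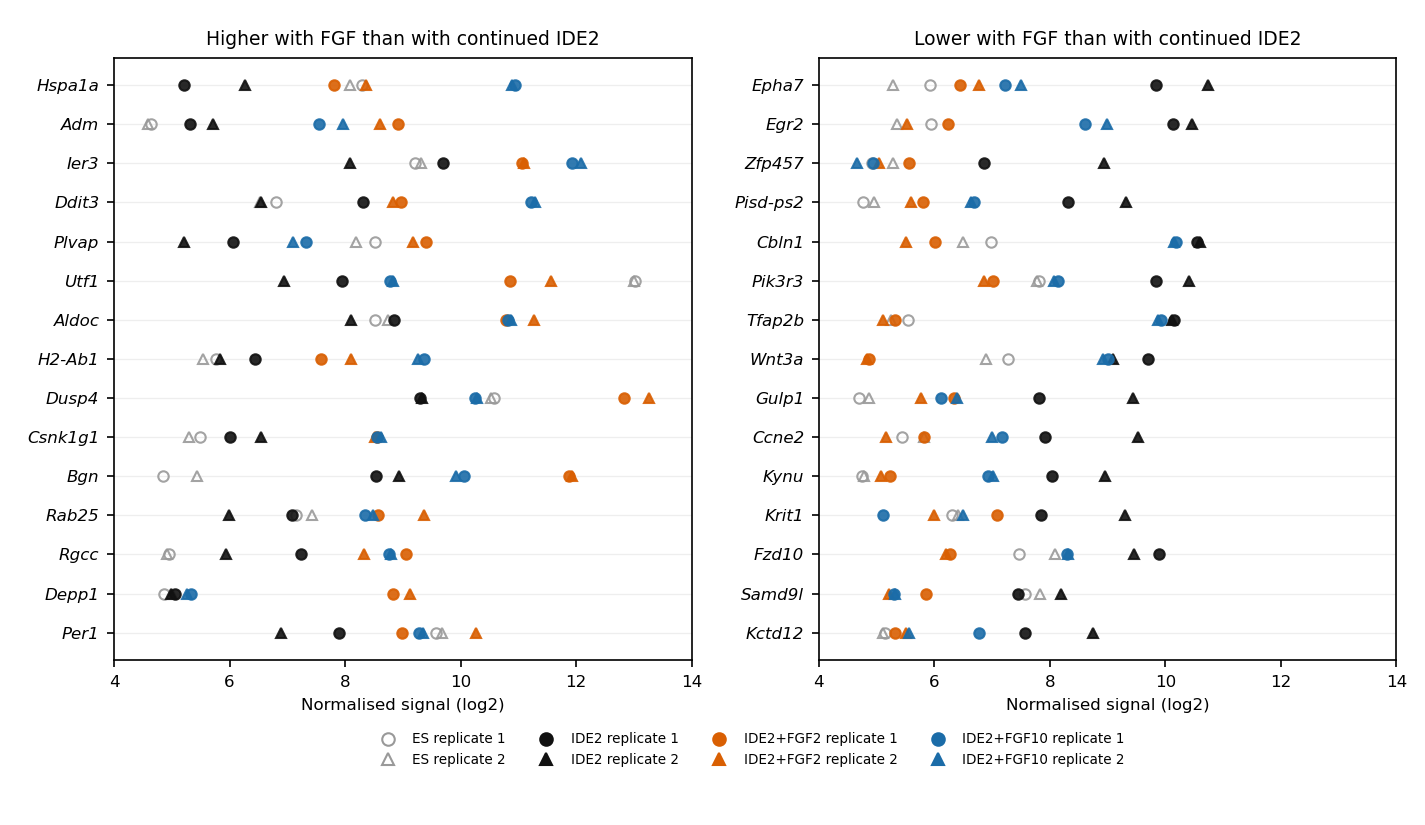
Normalised log2 signal on each of the 8 arrays (circles, replicate 1; triangles, replicate 2; colours, groups) for the 15 largest rises and the 15 largest falls among called genes whose sides did not overlap. In each line the orange and blue FGF symbols lie on one side of both black IDE2 symbols, and Hspa1a at the top spans 5.20 to 10.95.

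Of 13 tested FGF feedback genes and targets 3 rose and none fell, beside 4.75 and 8.1% of all genes. Ier3, an immediate-early gene induced by ERK, read 9.69 and 8.09 with IDE2, 11.06 and 11.10 with FGF2, and 11.93 and 12.08 with FGF10. Dusp4, a nuclear phosphatase that inactivates ERK, read 9.30 and 9.32, then 12.84 and 13.26, then 10.25 and 10.29. Both were above their IDE2 level on every FGF array. Ier3 differed by 0.93 between FGF10 and FGF2 (95% interval -0.03 to 1.89), and Dusp4 was higher with FGF2. The rises were 2.65 ± 0.37 (adjusted p = 0.006) and 2.35 ± 0.24 (adjusted p = 0.0011), and both passed without IDE2 replicate 2.

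Etv4 was the third target to rise. It read 6.81 and 6.89 with IDE2, 10.04 and 11.27 with FGF2, and 7.31 and 6.76 with FGF10. Its pooled rise of 1.99 (adjusted p = 0.0097) thus came from the FGF2 arrays, and the FGF10 arrays overlapped those of IDE2. Etv5 (0.77, adjusted p = 0.18) and Dusp6 (0.13, adjusted p = 0.80) did not pass, and for both the sides overlapped. These pooled values average unlike cultures. Etv5 read 7.05 and 8.05 with IDE2, 8.61 and 9.84 with FGF2, and 7.35 and 7.50 with FGF10. Dusp6 read 12.32 and 13.42, then 13.95 and 13.98, then 11.98 and 12.09. Both were lower with FGF10 than with FGF2 in limma (adjusted p = 0.033 and 0.012). Spry4 was not above background on either IDE2 array or on either FGF10 array. It was above background on both FGF2 arrays, at 5.63 and 7.82, and its pooled difference did not pass (adjusted p = 0.27). Spry2 was detected on a single array and was not tested. The list median was 0.73, and 0.69 without IDE2 replicate 2.

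Of 12 tested FGF ligands and receptors 4 fell and none rose, beside 8.1 and 4.75% of all genes. All 4 were ligands, and the FGF family members Fgf17, Fgf21, Fgf13 and Fgf1 differed by 0.61, 0.46, -0.01 and -0.03 and did not pass. Only Fgf15 was still called without IDE2 replicate 2. Fgf15, a ligand of the embryonic brain that later acts as a gut hormone, read 9.33 and 9.55 with IDE2, 6.30 and 5.99 with FGF2, and 8.58 and 8.57 with FGF10. It fell by 2.08 on the log2 scale (SE 0.23, adjusted p = 0.0017). Fgf5, a marker of the primed epiblast, read 9.35 and 9.99, then 8.87 and 8.30, then 6.51 and 6.07, so here the FGF10 arrays were the lower ones (-2.23, adjusted p = 0.005). Transcripts of Fgf10 itself, whose protein was added to one of the cultures, read 8.23 and 8.73 with IDE2 and 6.44 to 6.93 on the FGF arrays (-1.70, adjusted p = 0.0072). Fgf8 fell by 1.38 with overlapping sides, since its FGF10 arrays, at 8.19 and 8.11, lay among those of IDE2. The receptors Fgfr1, Fgfr2 and Fgfr3 differed by 0.33, -0.82 and -0.43 and did not pass.

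Of 20 tested genes of the Wnt list 5 fell, none rose and 15 did not pass, beside 8.1% of all genes that fell. Wnt3a, a ligand of the canonical beta-catenin pathway expressed in the primitive streak, tail bud and dorsal neural tube, read 9.70 and 9.10 with IDE2, 4.87 and 4.83 with FGF2, and 9.01 and 8.91 with FGF10. The FGF10 arrays lay just under the lower IDE2 array, with a gap of 0.08 units, and neither FGF2 array was above background. The pooled fall of 2.49 (SE 0.26, adjusted p = 0.0014) is therefore carried by the FGF2 arrays. Fzd10, a Wnt receptor outside the Wnt list, read 9.89 and 9.46, then 6.28 and 6.20, then 8.30 and 8.32, and fell by 2.40 on the log2 scale (adjusted p = 0.0017).

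Rspo3, a secreted amplifier of Wnt signalling, fell by 2.15 on the log2 scale, from 7.46 and 7.90 with IDE2 to 4.83 to 6.17 with the FGFs. Sp5, a transcription factor that is a direct target of beta-catenin, fell by 1.59 and the secreted antagonist Frzb by 1.35. Rspo3 and Wnt5a were above background on 2 of the 4 FGF arrays and Frzb on 3. Wnt5a, a ligand of the non-canonical branch, fell by 1.07 (adjusted p = 0.05). The list median was -0.17, and -0.50 without IDE2 replicate 2, where Wnt3a was the member still called. Among genes that pattern the body axis, 4 of 15 tested Hox, Meis and Pbx genes fell and 1 rose, beside 8.1 and 4.75% of all genes. Hoxb2, Hoxa2, Meis1 and Meis2 fell by 1.29, 1.05, 0.97 and 0.78, and Hoxb2 was above background on 1 of the 4 FGF arrays. The gene that rose was Hoxc6, which was below background on both IDE2 and both FGF10 arrays and read 7.42 and 7.11 with FGF2. It passed the detection filter only through the FGF2 arrays, and its pooled side was 1.93-fold over the IDE2 background level.

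**Figure D3:**
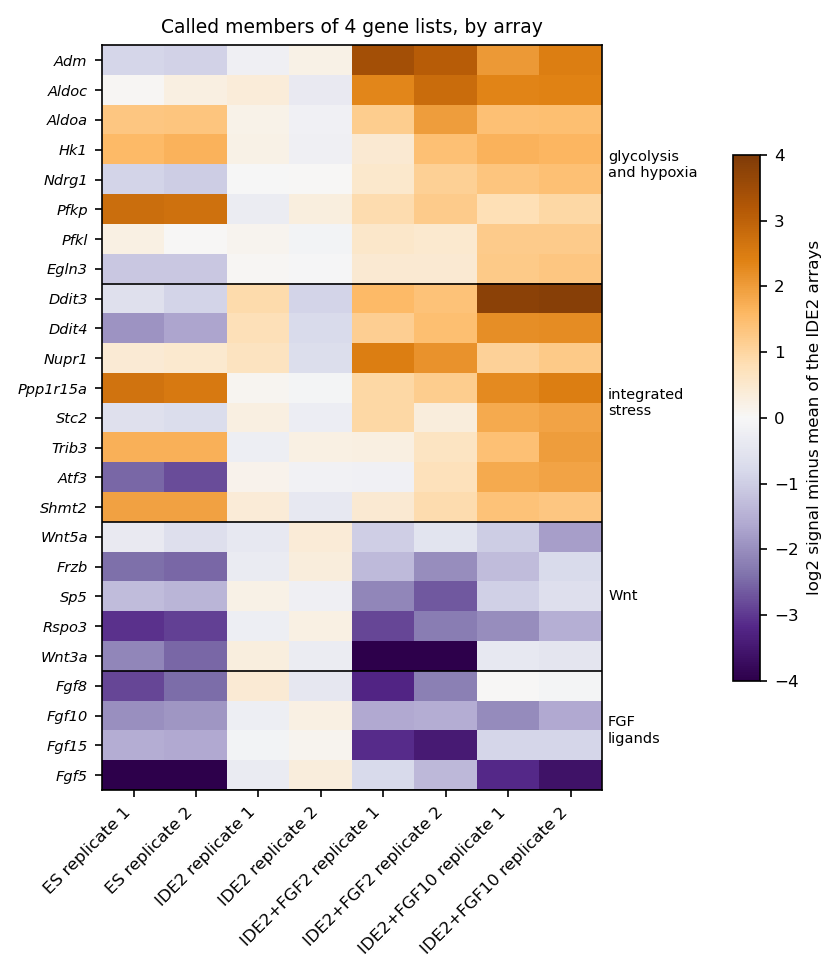
Each line is a gene, one of the called members of the glycolysis and hypoxia, integrated stress, Wnt and FGF ligand lists, and each column is an array. Colour gives the log2 signal minus the mean of the 2 IDE2 arrays, from -4 (purple) to 4 (brown); values beyond that range have the end colour. The 16 genes of the upper lists are raised on the 4 FGF arrays, apart from Atf3 on an IDE2+FGF2 array, and Wnt3a is lowest with FGF2.

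Because these are bulk cultures, fewer cells of a type and less RNA per cell cannot be told apart, here and below. Epha7, an ephrin receptor of the developing nervous system, had the widest gap of all named genes. It read 9.84 and 10.73 with IDE2, 6.45 and 6.77 with FGF2, and 7.23 and 7.50 with FGF10. The nearest arrays of the sides were 2.34 units apart. The level fell by 3.30 on the log2 scale (SE 0.31, adjusted p = 0.0011), 9.84-fold, and the difference was -2.88 without IDE2 replicate 2.

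Egr2, a zinc finger factor of hindbrain segments and myelinating glia, read 10.13 and 10.46 with IDE2, 6.24 and 5.53 with FGF2, and 8.62 and 8.99 with FGF10 (-2.95, adjusted p = 0.0011). Tfap2b, the AP-2 beta factor of neural crest, read 10.16 and 10.12, then 5.31 and 5.11, then 9.93 and 9.86. Cbln1, a synapse organiser, read 10.55 and 10.59, then 6.02 and 5.51, then 10.19 and 10.15. For the last 2 genes the FGF10 arrays were close to IDE2 and the FGF2 arrays were near background, so the pooled differences of -2.58 and -2.60 average a large and a small one.

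Ednrb, the endothelin receptor of migrating neural crest, fell by 2.26 on the log2 scale: it read 9.75 and 10.39 with IDE2, 7.02 and 6.74 with FGF2, and 8.74 and 8.73 with FGF10. Of 5 tested glia and neural crest genes 2 fell (Tfap2b and Ednrb) and 1 rose, beside 8.1 and 4.75% of all genes. The gene that rose was Ngfr, the low-affinity neurotrophin receptor. It was below background on both IDE2 arrays and at least 1.51-fold higher with FGF. The summed signal of the list was 2358 and 2780 on the IDE2 arrays, 425 and 426 with FGF2, and 1876 and 1765 with FGF10. The markers Foxd3, Gfap, S100b, Olig2 and Mitf were above background on 0 of the 8 arrays. The part of these cells in the falls was not tested.

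Of 17 tested neural progenitor and neuron genes 2 fell and 1 rose, beside 8.1 and 4.75% of all genes, and none was called without IDE2 replicate 2. Zic1, a dorsal neural factor, fell by 1.58 and Map2, the dendritic microtubule protein, by 1.27, while the axonal microtubule protein Mapt was below background on both IDE2 arrays and at least 2.14-fold higher on the FGF arrays. A second Mapt probe differed by 0.27.

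The remaining falls that held in every leave-one-out fit had varied roles. Pik3r3, a regulatory subunit of phosphoinositide 3-kinase, read 9.83 and 10.41 with IDE2, 7.01 and 6.86 with FGF2, and 8.15 and 8.07 with FGF10 (-2.60, adjusted p = 0.0011). Kynu, the kynureninase of tryptophan breakdown, read 8.03 and 8.95, then 5.23 and 5.08, then 6.94 and 7.02 (-2.42), and its FGF2 arrays were below background. Fam181b fell by 1.79. For both Pik3r3 and Kynu the FGF2 arrays were the lowest of the 6 and the FGF10 arrays lay between. Pisd-ps2, a pseudogene of the phosphatidylserine decarboxylase gene whose probe may also read related transcripts, fell by 2.64. Bclaf1, an RNA-binding regulator of transcription, fell by 2.25 on the probe used, but its other probe differed by 0.08.

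Falls among the 15 largest that did not pass without IDE2 replicate 2 were those of Zfp457, Gulp1, Ccne2, Krit1, Samd9l and Kctd12. For Ccne2, the cyclin E2 of the transition into S phase, the IDE2 arrays read 7.92 and 9.53 and the FGF arrays 5.17 to 7.16. Gulp1, an adaptor for engulfment of dying cells, read 7.82 and 9.44 against 5.77 to 6.40. In all 6 genes IDE2 replicate 2 was the highest of the 6 arrays. Without it the adjusted p values of the other 5 were 0.065 to 0.12 and their differences -1.62 to -1.97. For Krit1 that fit picked another probe (-1.01, adjusted p = 0.12), and its probe described here gave -1.66 (adjusted p = 0.21). Zfp457 and Samd9l were above background on 1 of the 4 FGF arrays.

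Of 13 tested endothelium and blood genes 5 rose and none fell, beside 4.75 and 8.1% of all genes. Of the 5, Emcn was above background on the 2 FGF2 arrays alone and passed the detection filter only through them. Plvap, which forms the diaphragms of fenestrated endothelium, read 6.07 and 5.21 with IDE2, 9.39 and 9.18 with FGF2, and 7.33 and 7.10 with FGF10. It rose by 2.61 ± 0.29 (adjusted p = 0.0017) and by 2.18 without IDE2 replicate 2, and was above background on 1 of the 2 IDE2 arrays. Emcn, the endothelial sialomucin endomucin, read 4.69 and 4.54, then 9.13 and 9.19, then 4.68 and 4.62. Its FGF10 arrays were below background and overlapped those of IDE2, so its pooled rise was an FGF2 change and not a shared one. The pooled fold over the IDE2 background level was 2.79, which is not a bound, since the FGF10 values were below background too. Eng, a coreceptor for transforming growth factor beta on endothelium, was likewise below background with IDE2 and FGF10 and read 7.34 and 8.28 with FGF2. Its pooled rise was 2.17-fold over the IDE2 background level, with overlapping sides.

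The other members that rose were Lmo2, a blood and endothelial transcription cofactor (1.60), and the adhesion molecule Esam (1.25). Both pooled rises came mainly from the FGF2 arrays. Against IDE2, Lmo2 differed by 3.01 with FGF2 and 0.19 with FGF10, and Esam by 2.15 and 0.34. Pecam1 (0.19), Flt1 (-0.24) and Tek (-0.66), which also mark endothelium, did not pass. Cdh5, Tie1, Erg, Fli1, Tal1 and Gata1 were above background on 0 of 8 arrays. The summed signal of the list was 3689 and 2296 on the IDE2 arrays, 7423 and 6700 with FGF2, and 4406 and 4496 with FGF10. On the ES arrays it was 6313 and 6083. Esam (10.91 and 10.87) and Eng (8.45 and 8.63) read higher on the ES arrays than on any FGF array. Plvap read 8.51 and 8.20 there, between its FGF10 and FGF2 levels. Lmo2 (6.22 and 6.40) and Emcn (4.75 and 5.02) lay below their FGF2 levels. How far endothelial cells account for these rises was not tested.

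Biglycan and the class II histocompatibility gene H2-Ab1 were among the rises that held in every fit. Bgn, a small proteoglycan of the matrix, read 8.54 and 8.94 with IDE2, 11.87 and 11.92 with FGF2, and 10.05 and 9.92 with FGF10 (2.20 ± 0.26, adjusted p = 0.0022). H2-Ab1 read 6.44 and 5.83, then 7.58 and 8.10, then 9.37 and 9.26 (2.45 ± 0.27, adjusted p = 0.0017). The sides were well apart for both, with Bgn highest in FGF2 and H2-Ab1 highest in FGF10. Of the leukocyte markers, Ptprc, Tyrobp, Fcer1g, Lyz2, Spi1, Itgam, C1qa and C1qb were above background on 0 of 8 arrays. Of 3 tested macrophage and leukocyte genes 1 rose, beside 4.75% of all genes. It was Laptm5, a lysosomal membrane protein of blood cells, by 0.86, and the others did not pass. The summed signal of these 3 genes was 1046 and 1069 with IDE2, 2578 and 2008 with FGF2, and 1645 and 1498 with FGF10, all below the ES arrays.

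Among 22 tested collagen and matrix genes 4 rose and 1 fell, beside 4.75 and 8.1% of all genes. Beside Bgn, Col6a1 rose by 1.35, the collagen cross-linking enzyme Loxl2 by 1.16 and the gelatinase Mmp2 by 1.12. Dcn, the related proteoglycan decorin, was below background on all 4 FGF arrays and at least 1.58-fold lower. The median of the list was 0.08, near that of all genes. Of 16 mesenchyme factors, Zeb2 and Pdgfra fell by 1.90 and 1.47, while Tcf15, a factor of paraxial mesoderm, and Thy1 rose by 1.53 and 1.41, the latter with overlapping sides, and Tcf15 was above background on 1 of the 2 IDE2 arrays.

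The last 2 genes that rose in every leave-one-out fit were Csnk1g1 and Tram2. Csnk1g1, a casein kinase of the plasma membrane, had the widest gap among the rises: 6.00 and 6.54 with IDE2 against 8.51 to 8.63 on the 4 FGF arrays (2.29 ± 0.25). Its other probes differed by -0.59 and 0.52, so the change was seen with 1 of 3 probes. Tram2, a component linked to collagen synthesis at the endoplasmic reticulum, read 5.79 and 6.09 with IDE2, 7.39 and 7.40 with FGF2, and 7.79 and 7.77 with FGF10 (1.64 ± 0.24, adjusted p = 0.0063).

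Pluripotency genes went both ways. Of 21 tested 3 rose and 2 fell, beside 4.75 and 8.1% of all genes. The median of 0.22 was 0.20 without IDE2 replicate 2. Utf1, a chromatin factor of ES cells, read 7.95 and 6.95 with IDE2, 10.85 and 11.56 with FGF2, and 8.77 and 8.82 with FGF10, all below the ES arrays at 13.02 and 13.01. Its rise of 2.55 ± 0.32 (adjusted p = 0.0036) was not called without IDE2 replicate 2 (2.07, adjusted p = 0.065). Pou5f1 read 10.31 and 9.31, then 11.75 and 12.57, then 10.29 and 10.13, so the FGF10 arrays lay among those of IDE2 and the pooled rise of 1.37 (adjusted p = 0.029) was an FGF2 change. Esrrb rose by 0.84. Nanog did not pass (-0.58, adjusted p = 0.12). Sox2 fell by 0.89 on the probe used and differed by 0.02 on another, and L1td1 fell by 1.67 with overlapping sides.

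Of 12 tested genes of definitive endoderm and early gut 2 fell and 1 rose, beside 8.1 and 4.75% of all genes. Sox17, the endoderm transcription factor, read 8.03 and 8.09 with IDE2 and 6.35 to 7.13 on the FGF arrays (-1.19 ± 0.28, adjusted p = 0.025). Cxcr4, a chemokine receptor used to sort definitive endoderm, read 6.34 and 7.45 against 5.29 to 5.75 (-1.35, adjusted p = 0.026), and was above background on 1 of the 4 FGF arrays. Neither was called without IDE2 replicate 2 (adjusted p = 0.17 and 0.22). Hhex rose by 0.87 through the FGF2 arrays alone, at 7.73 and 7.70 against 5.64 to 5.87 on the other 4. Foxa1, Foxa2 and Gata4 were above background on 0 of 8 arrays.

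Of 13 tested lung epithelium genes 2 fell and none rose, beside 8.1 and 4.75% of all genes. Sox9, a factor of the distal lung buds and of cartilage, fell by 1.12. Cav1, the caveolar protein of alveolar type I cells, fell by 1.22 with overlapping sides. The lung-defining genes Nkx2-1, Sftpa1, Sftpb, Sftpc, Scgb1a1, Lamp3, Hopx, Slc34a2 and Cldn18 were above background on 0 of 8 arrays and were not tested. Among 23 epithelial junction and keratin genes 4 rose and none fell, beside 4.75 and 8.1% of all genes. They were Rab25, a GTPase of epithelial recycling endosomes (2.16 ± 0.34), the tight junction protein Cldn3 (1.69), the epithelial transcription factor Ovol2 (1.47) and the membrane protease St14 (0.96). None of these 4 was called without IDE2 replicate 2. Of 17 genes of extraembryonic endoderm and plasma proteins, Apoe rose by 1.87, and the activin antagonist Fst, the laminin chain Lama1 and the transcription factor Sox7 fell by 1.62, 1.40 and 1.19.

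Targets of transforming growth factor beta and activin were looked at because IDE2 is known to act on that pathway. Of 17 tested 3 rose and 1 fell, beside 4.75 and 8.1% of all genes. Ccn1 rose by 1.85, Bhlhe40 by 1.53 and Tgfbi by 1.09, while Gsc, the primitive streak factor goosecoid, fell by 1.08 with overlapping sides. The median changed sign with the IDE2 arrays, from -0.07 to 0.18 without replicate 2 and to -0.36 without replicate 1.

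Immediate-early genes respond to growth factors and stress within minutes. Of 12 tested 6 rose and 1, Egr2, fell, beside 4.75 and 8.1% of all genes. In 4 of the 12 all FGF arrays lay above both IDE2 arrays, beside 14.3% of all genes. Junb rose by 1.74, Maff by 1.52, the phosphatase Dusp1 by 1.23, Atf3 by 1.07, Egr1 by 0.94 and Fos by 0.88. The sides overlapped for Atf3 and Fos. Dusp1, for example, read 11.18 and 11.31 with IDE2 and 12.00 to 12.68 with the FGFs. The list median was 0.81, and 0.71 without IDE2 replicate 2, where none rose and Egr2 was the only member called.

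The highest median of any list belonged to the respiratory chain and ATP synthase, and it rested on a single array. Over 37 tested genes the median difference was 0.85 with all arrays, 0.16 without IDE2 replicate 2 and 1.60 without IDE2 replicate 1. The median level was 12.47 and 11.15 on the IDE2 arrays and 12.30 to 12.74 on the 4 FGF arrays, so only IDE2 replicate 2 was low. Of the 37 genes 5 rose (Ndufb9, Atp5e, Cox7b, Atp5o and Ndufb5, by 1.61, 1.51, 1.45, 1.32 and 1.20), and none did without that array. Ribosomal protein genes had the same low array, at 15.28 and 14.39 on the IDE2 arrays and 15.07 to 15.27 with FGF, and 2 of 20 rose. Over all genes tested 4.75% rose.

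**Figure D4:**
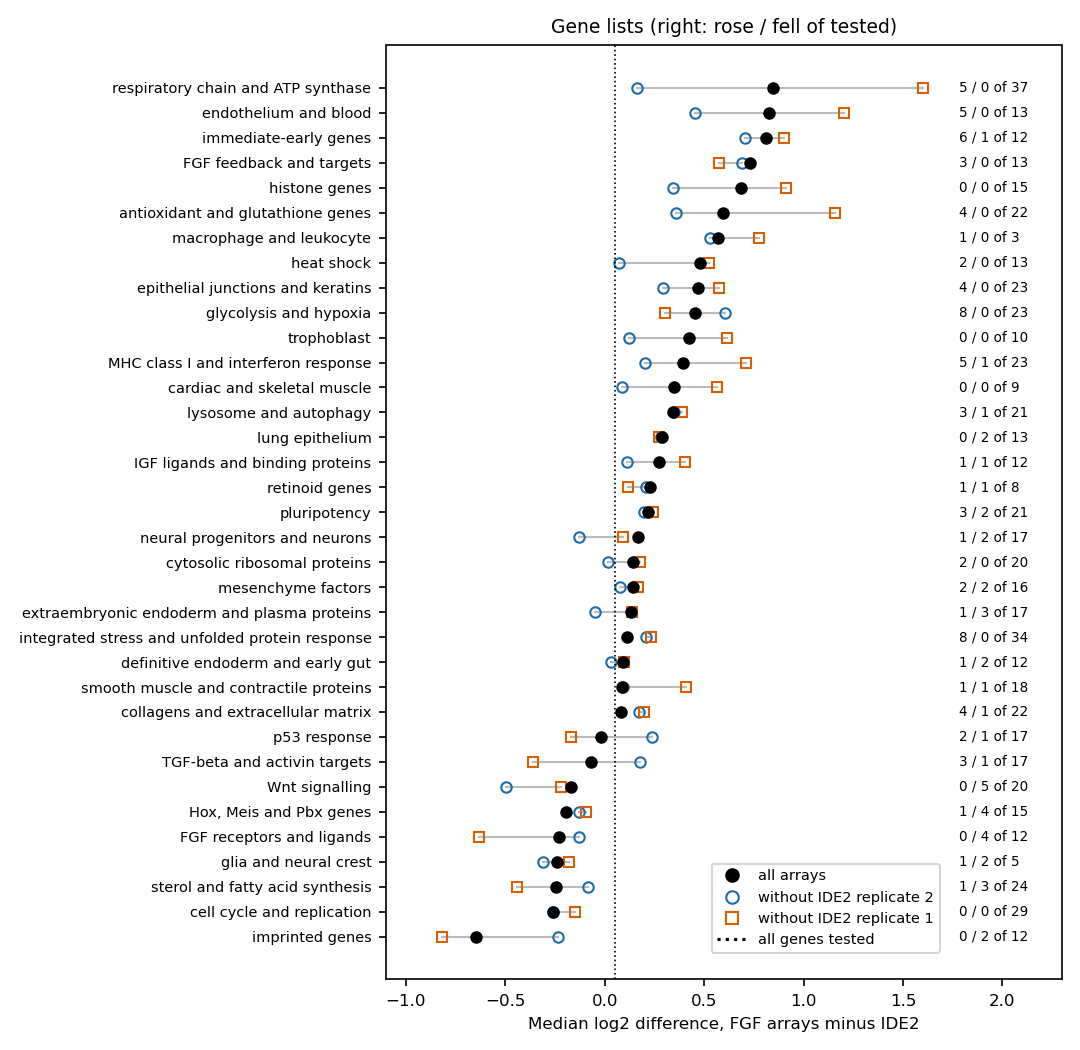
Median log2 difference (FGF arrays minus IDE2) over the tested genes of each of 35 lists, with all arrays (filled), without IDE2 replicate 2 (blue) and without IDE2 replicate 1 (orange); the dotted line is the median of all genes, 0.05, and the right margin gives how many rose and fell of those tested. The respiratory chain moves from 1.60 to 0.16 with the choice of IDE2 array, and the immediate-early genes lie at 0.90 without IDE2 replicate 1 and 0.71 without replicate 2.

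The FGF cultures were not alike within the shared direction. In a direct test, 725 genes (7.31%) differed between IDE2+FGF10 and IDE2+FGF2, 258 higher (2.6%) and 467 lower (4.71%) with FGF10. Scaling arrays by their medians instead of by quantiles moved the median of all genes in this test by -0.27 and gave 1373 genes, 136 higher and 1237 lower. Of the 1121 genes that met both criteria against IDE2, 116 differed between the FGF cultures, 74 of them with the FGF2 arrays farther from IDE2 and 42 with the FGF10 arrays farther. For the other 1005 no difference was found, which does not show that the cultures were alike.

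Among the 15 largest rises, 8 differed between the FGF cultures, and among the 15 largest falls 7. Depp1, a target of FoxO factors, read 5.06 and 4.99 with IDE2, 8.83 and 9.12 with FGF2, and 5.33 and 5.26 with FGF10. It met the ordering rule although the FGF10 arrays were below background. The pooled side was 3.28-fold over the IDE2 background level, and Depp1 passed the detection filter only through the FGF2 arrays. The rises most evenly shared were those of Csnk1g1, with a difference between the cultures of 0.06 (95% interval -0.57 to 0.69), of Aldoc and of Rgcc, a cell cycle regulator, with 0.08 (-0.83 to 0.99). Among the falls, Gulp1 differed by 0.20 (-0.81 to 1.21) and Samd9l by -0.23 (-0.98 to 0.52). The comparisons of each FGF culture with IDE2 share the IDE2 arrays, so an array that stands apart there moves both in the same direction.

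**Figure D5:**
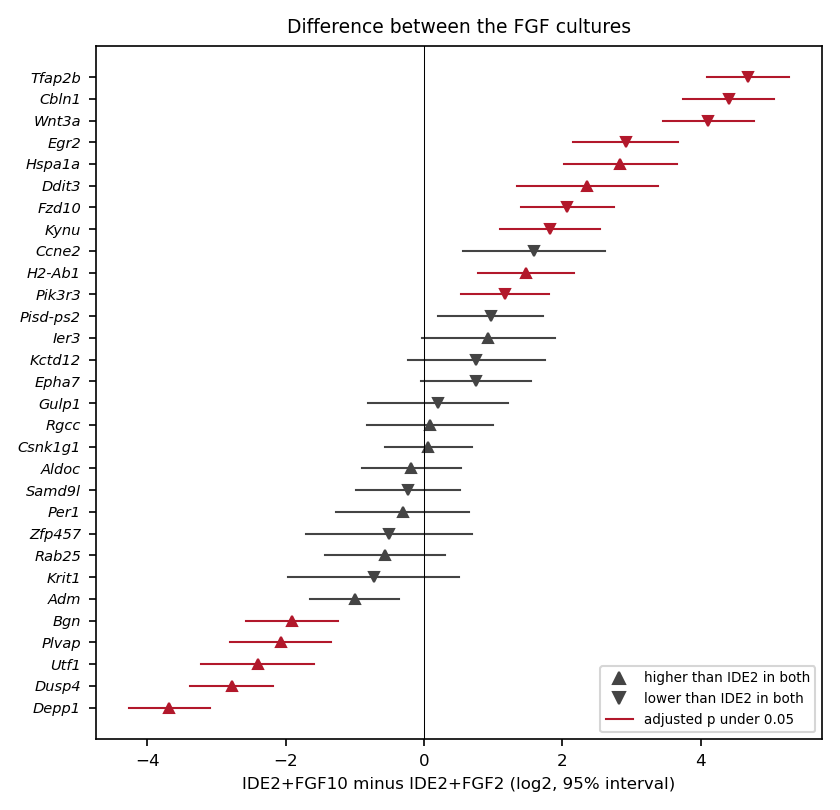
Difference between IDE2+FGF10 and IDE2+FGF2 (log2, with 95% interval from limma) for the 15 largest rises (upward triangles) and 15 largest falls (downward triangles); red marks an adjusted p under 0.05. Tfap2b, Cbln1 and Wnt3a lie beyond 4 on the right, where FGF10 stayed near the IDE2 level, and Depp1 lies farthest left, where FGF10 stayed near the IDE2 level of a gene that rose.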

How the data were processed

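Total RNA of 8 samples was labelled and hybridised to Illumina BeadChips. The deposited intensities are raw linear signals averaged over the beads of each probe, per the file headers. Next to them stand the deposited count of beads and the deposited p-value of detection, which compares a probe with the background probes. Signals were summarised in BeadStudio, per the submitters' processing notes. A second deposited table of intensities, with array medians of 144.5 to 144.9 and the same rank order per array, served as an alternative. Its normalization is not given in the sources used here.

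Of 25697 probes, 23978 named 16593 genes. Signals were corrected and quantile normalized with neqc (limma 3.58.1, R 4.3.3; offset 16) to log2 values. A probe was kept if 2 or more arrays had a detection p under 0.05 (14502, 13637 named), and the brightest probe stood for each of 9915 genes. Depth is set by the number of arrays and of beads. The 8 arrays were fitted in limma with 4 group means (4 residual and 6.64 prior degrees of freedom), and the mean of the FGF groups minus IDE2 was tested, adjusted by the Benjamini-Hochberg method over all genes. Simulated data had independent noise and, for each gene, the same spread on all 8 arrays. In them this comparison recovered 13 of 50 genes changed by 1 log2 unit and 49 of 50 changed by 2, with 7 false calls. The real spread differed between groups, at 0.50 for IDE2 and 0.24 for IDE2+FGF10. The simulated false calls therefore do not measure those of the real comparison. Where a probe was below background on a whole side, the fold is a bound against the lowest signal above background on each array. Arrays of the other side that were below background kept their normalised values, and in such genes the fold is not a strict bound.

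Deviations of same-numbered arrays correlated at -0.04 to 0.01, so the normalised values showed no pairing by replicate number. That does not exclude a pairing, since replicate 2 had the higher median raw signal in every group. The medians were 117 and 173 in ES, 130 and 162 in IDE2, 137 and 175 in IDE2+FGF2, and 129.5 and 133.2 in IDE2+FGF10. Members and gene lists (851 entries, 760 with a probe, 598 tested) were chosen with earlier results of these data known. Named were the 15 largest rises and falls among called genes whose sides did not overlap, the 6 widest gaps each way, up to 4 genes per list, up to 6 genes that differed most between the FGF cultures, and a few chosen markers. Other list members and the genes called in all leave-one-out fits were named after their values were seen. Alternatives were other background corrections, scalings, filters, variance models, probe choices and sets of arrays, and leaving out each array. The brightest probe was chosen anew in each leave-one-out fit, which gave another probe for 43 of 9683 genes without IDE2 replicate 2. An alternative that kept the probe was added after the data were seen.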

Additional observations from a re-analysis of the deposited data

Results flagged for a closer look

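Of the named genes that were called against IDE2, 48 also differed between IDE2+FGF10 and IDE2+FGF2 in limma's direct test at an adjusted p under 0.05, 26 with higher and 22 with lower levels in FGF10. The values below are log2 differences, IDE2+FGF10 minus IDE2+FGF2. In 15 of the 48 genes the FGF arrays overlapped those of IDE2, so their pooled calls do not describe a shared change.

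Genes that rose against IDE2 and were higher with FGF10 were Hspa1a (2.84), Ddit3 (2.36), Hmox1 (1.60), Atf3 (1.56), H2-Ab1 (1.47), Ppp1r15a (1.31), Trib3 (1.23) and Stc2 (1.21). Genes that rose and were lower with FGF10 were Emcn (-4.51), Klhl6 (-3.75), Depp1 (-3.68), Etv4 (-3.62), Lmo2 (-2.81), Dusp4 (-2.78), Eng (-2.54), Utf1 (-2.41), Igfbp7 (-2.21), Plvap (-2.07), Hhex (-2.0), Pou5f1 (-1.95), Bgn (-1.91), Thy1 (-1.87), Esam (-1.81), Hoxc6 (-1.79), Tcf15 (-1.53), Gpnmb (-1.37) and Col6a1 (-1.27). The endothelial genes Emcn, Lmo2, Eng, Plvap and Esam are all in this second set.

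Genes that fell against IDE2 in the pooled comparison and were higher with FGF10, so that the FGF2 arrays were the lower ones, were Tfap2b (4.68), Cbln1 (4.41), Wnt3a (4.11), Crabp2 (3.81), Egr2 (2.92), Fgf8 (2.69), Fgf15 (2.43), Fzd10 (2.07), Gsc (2.06), Fst (2.03), Ednrb (1.86), Kynu (1.82), Sp5 (1.60), Igfbp5 (1.59), Zic1 (1.55), Fam181b (1.34), Hoxa2 (1.22) and Pik3r3 (1.18). Those that fell and were lower with FGF10 were L1td1 (-2.90), Fgf5 (-2.30) and Trp53inp1 (-1.47). Crabp2 did not fall with FGF10, where it read 11.68 and 11.55 against 11.79 and 10.38 with IDE2.

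Tfap2b, Wnt3a, Kynu and Gsc were below background on both IDE2+FGF2 arrays and were at least 21.8, 11.4, 2.89 and 2.76-fold higher with FGF10. Emcn, Depp1, L1td1, Eng and Hoxc6 were below background on both IDE2+FGF10 arrays and were at least 10.6, 9.32, 5.08, 4.15 and 2.85-fold lower with FGF10. The fitted differences of these genes are not bounds.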

How the results depend on the processing

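The number of genes called between the FGF cultures and IDE2, 1274, depended strongly on the arrays and on how their spread was modelled. Leaving out each array in turn gave 27 (without IDE2 replicate 2) to 3074 (without IDE2 replicate 1), and the fits without IDE2+FGF2 replicate 2, IDE2+FGF10 replicate 1 and IDE2+FGF10 replicate 2 gave 297, 256 and 309, and those without ES replicate 1 or 2 gave 613 and 650. Array weights estimated from the data gave 25, only the 6 arrays 638, those 6 with the FGF arrays as a single group 0 in limma (1857 genes at an unadjusted p under 0.05), no detection filter 769, and leaving out both IDE2 replicate 2 and IDE2+FGF2 replicate 2 gave 448. The count of genes with all FGF arrays on one side of IDE2, 2907, was 2871 to 5957 in the leave-one-out settings (highest without IDE2 replicate 1) and 5017 without both of those arrays. The count between the FGF cultures, 725, was 69 to 1582 in the leave-one-out fits (365 and 369 without ES replicate 1 or 2, 1491 and 1582 without IDE2 replicate 1 or 2, 132 without IDE2+FGF2 replicate 2, 93 and 69 without IDE2+FGF10 replicate 1 or 2), 1373 with median scaling (136 higher and 1237 lower), 369 with only the 6 arrays and 2364 without both arrays. With the replicate number as a block the counts were 1182 and 665, and whether the replicate numbers pair the arrays is not known. Of the 132 named genes that were called, 131 had a value without IDE2 replicate 2, and 27 of those were still called, 24 of 132 with array weights. Dusp6, which was not called (0.13), reversed its sign when an array was left out, with a range of -0.43 (without IDE2 replicate 1) to 0.69 (without IDE2 replicate 2). Pecam1 (0.19), Ldha (0.21) and Slc2a1 (-0.36), named outside the rule and not called, also changed sign: they differed by -0.07 and -0.10 without IDE2 replicate 1 and by 0.14 without IDE2 replicate 2. A fit without 1 array chose the brightest probe again, which changed the probe of 4 genes named by the rule (Col6a1, Fgf10, Krit1 and Usp18). With the probe kept, chosen after seeing the data, the 3 counts were 3075, 5959 and 1490 without IDE2 replicate 1 and 27, 4067 and 1580 without IDE2 replicate 2. The causes were not tested. With 2 IDE2 arrays, a fall in the count without 1 of them also reflects fewer arrays.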

Other observations

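Metabolic and housekeeping lists gave mixed counts, to be read beside the 4.75% of all genes that rose and the 8.1% that fell. Of 24 tested sterol and fatty acid synthesis genes 3 fell and 1 rose: Hmgcs1, which makes the precursor of mevalonate, fell by 1.40 (13.95 to 14.25 on the FGF arrays against 15.21 and 15.77), Hsd17b7 by 1.35 and the elongase Elovl6 by 1.23, while Mvd rose by 1.21. Antioxidant genes rose in 4 of 22 cases and fell in none, among them the carbonyl reductase Cbr1 (1.56), the glutathione transferase Gstm1 (1.54) and the lipid peroxide reductase Gpx4 (1.38); none was called without IDE2 replicate 2. Of 21 lysosome and autophagy genes 3 rose and 1 fell, Gabarapl1 by 1.40 and Hexa by 0.93 upwards and Lamp2 by 1.41 downwards. Gpnmb was below background on both IDE2 arrays and on 1 of the FGF10 arrays. Its pooled side was 1.90-fold over the IDE2 background level on the probe used, while its other probe differed by -0.04.

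Growth control and immune lists moved in both directions, beside 4.75% of all genes that rose and 8.1% that fell. Of 12 insulin-like growth factor genes, the binding protein Igfbp5 fell by 1.99 (11.90 and 12.44 with IDE2, 9.18 to 10.99 with FGF) and Igfbp7 rose by 1.19 with overlapping sides. Of 12 imprinted genes 2 fell and none rose, Impact by 1.51 and Peg3 by 1.32. Of 17 p53 response genes, the cell cycle inhibitor Cdkn1a and the apoptosis gene Bbc3 rose by 1.05 and 1.26, and Trp53inp1 fell by 1.16 with overlapping sides. Of 23 class I histocompatibility and interferon genes 5 rose (Bst2, Ifitm3, Psmb9, Ifitm2 and Tap1) and Usp18 fell by 0.87. Of 8 retinoid genes Rxra rose by 1.90 and Crabp2 fell by 1.38, the latter with overlapping sides and through the FGF2 arrays alone. Of 18 contractile genes Cnn2 rose by 1.01 and Mylk fell by 1.19. None of 9 cardiac and skeletal muscle, 10 trophoblast, 29 cell cycle or 15 histone genes passed the test.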
